A study of Homo sapiens with 24 samples.

Results

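A375 melanoma cells of a PTDSS2 knockout clone were set against A375 parent cells, both after 24 h in vehicle (DMSO), by poly(A) RNA sequencing. The comparison rested on the 3 libraries labelled as A375 knockout with DMSO and the 3 labelled as A375 parent with DMSO, 6 of the 24 libraries of the series. The knockout cells carried the PTDSS2-KO genotype and were the clone numbered 54, and the parent cells were wild type for PTDSS2. How the knockout was made is not given in the sources used here. Only 1 clone was sequenced, so what the genotype did and what set this clone apart from its parent cannot be told apart in any value below. The other 18 libraries were A375 knockout and parent cells with 0.1 µM DS07551382, a PTDSS1 inhibitor, and the HCT116 colon cancer line as a knockout clone and its parent, each with DMSO or the inhibitor. Some of these serve below to show whether a difference recurred.

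Phosphatidylserine is made in the endoplasmic reticulum (ER) by base exchange. PTDSS1 acts mainly on phosphatidylcholine and PTDSS2 mainly on phosphatidylethanolamine, and either enzyme can sustain a cell when the other is absent. PISD then decarboxylates phosphatidylserine to phosphatidylethanolamine in mitochondria. Phosphatidylserine lines the cytoplasmic face of the plasma membrane, where it binds signalling proteins, caveolar coat proteins and annexins.

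Library totals, in counts, were 8123567 to 9950536 in knockout cells and 7705622 to 8280732 in parent cells. Levels are CPM, counts scaled to a common library total after TMM scaling, each log2 fold change is given ± its standard error, and n was 3 libraries in each group. Nothing in the labels ties the libraries to separate cultures; the spread behind the p-values may therefore be technical. Within a group the log2 CPM of pairs of libraries correlated at 0.987 to 0.991, and between the groups at 0.979 to 0.982, across genes. SOX10 and ERBB3, both of the melanocyte lineage, averaged 334 and 256 CPM in knockout cells and 398 and 335 CPM in parent cells. The pigment genes PMEL, MLANA, TYRP1 and DCT were under 1 CPM in both groups and TYR and TRPM1 were at 0. The libraries thus carried lineage factors of a melanoma line, with little or no RNA of these pigment genes. MC1R, RAB38 and RAB27A, on the same list, averaged 15.5, 18.25 and 7.2 CPM in knockout cells. In parent cells they averaged 18.8, 19.77 and 6.7 CPM.

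PTDSS2 RNA was nearly lost. It measured 0.921, 0.996 and 0.724 CPM in the knockout libraries, against 24.1, 22.2 and 23.2 CPM in the parent libraries. These levels rest on 9, 8 and 7 counts in knockout cells and on 200, 172 and 194 counts in parent cells. The groups were far apart, with a log2 fold change of -4.71 ± 0.19 (edgeR adjusted p = 2.437e-22). On the deposited TPM scale, which accounts for gene length, PTDSS2 averaged 0.727 ± 0.123 TPM in knockout cells and 19.7 ± 0.895 TPM in parent cells (SD). The PTDSS2 promoter is shown because transcripts of this gene fell most among the genes of phospholipid synthesis. It lies at chr11:450029-450328 on the plus strand (RefSeq, GRCh38.p14) and runs from 250 bases before the annotated start to 50 after it. Capitals mark each CG dinucleotide.
PTDSS2: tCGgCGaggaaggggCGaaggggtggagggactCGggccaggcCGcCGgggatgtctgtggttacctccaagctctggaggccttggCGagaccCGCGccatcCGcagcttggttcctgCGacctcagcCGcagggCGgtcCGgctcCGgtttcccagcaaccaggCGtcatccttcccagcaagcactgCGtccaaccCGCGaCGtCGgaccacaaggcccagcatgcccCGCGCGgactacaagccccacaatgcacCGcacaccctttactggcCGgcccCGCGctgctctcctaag
It holds 28 CG dinucleotides, and 75.8% of the 35116 promoters of the RefSeq table hold at most as many.

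The other synthase and the decarboxylase did not pass the test. PTDSS1 measured 177, 165 and 176 CPM in knockout cells, against 160, 169 and 166 CPM in parent cells, and the groups overlapped. Its log2 fold change was 0.06 ± 0.04 (edgeR adjusted p = 0.3363). PISD measured 32.1, 30.5 and 31.9 CPM in knockout cells, against 25.3, 28.6 and 31.4 CPM in parent cells (0.15 ± 0.08, edgeR adjusted p = 0.2197).

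Of 13455 genes tested, 2115 changed (15.7%): 1235 rose (9.18%) and 880 fell (6.54%) at an edgeR adjusted p under 0.05. With library size alone in place of TMM, 787 rose (5.85%) and 1253 fell (9.31%), so the share of calls that were rises was 38.6% in place of 58.4%, while the median log2 fold change of all genes was -0.03 in place of 0.01. DESeq2 called 753 higher (5.6%) and 618 lower (4.59%). Changes of at least 2-fold went mostly down, with 73 genes higher (0.543%) and 171 lower (1.27%). The knockout libraries lay all above the parent libraries for 17.3% of the tested genes and all below them for 13.4%.

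**Figure D1:**
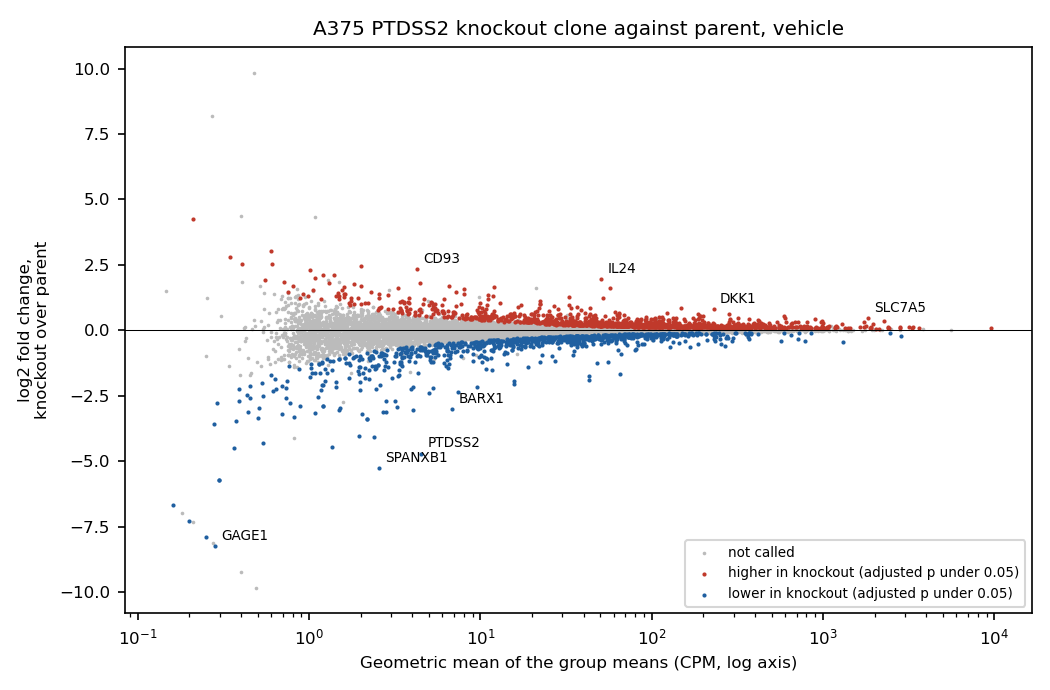
Each point is 1 of the 13455 genes tested, with the geometric mean of the group means in CPM on a log x axis and the log2 fold change of knockout over parent on the y axis. Red points (1235) were called higher in knockout cells, blue points (880) lower, and grey points were not called; the longest excursions are downward, among them SPANXB1, PTDSS2 and GAGE1.

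Most of the tested genes next to PTDSS2 on the side of the chromosome end rose, and 0 on the side of the centromere were called; the difference between the sides was not tested. Chromosome 11 genes were put in the order of the RefSeq table, and the 10 tested genes on each side of PTDSS2 were read off. Toward the chromosome end, 8 of 10 rose (9.18% of all tested genes rose), with a median log2 fold change of 0.50 (1.41-fold), and all 10 had values above 0. By edgeR 0 of these fell, and 0 fell at an unadjusted p under 0.05, by DESeq2 or by limma-voom. That side held 11 tested genes in all. The one beyond these 10, LINC01001, was at -1.62 and did not pass (edgeR adjusted p = 0.2609). Toward the centromere, 0 of 10 changed by edgeR, as by DESeq2, by limma-voom and at an unadjusted p under 0.05, and the median was 0.08, with 7 of 10 values above 0. The sides differed in level, however. A filter at a mean of 5 CPM kept all 10 genes toward the chromosome end but 5 toward the centromere (median 0.01, 0 called). Low genes on that side had wide errors, as LMNTD2 (0.59 ± 0.48) and MIR210HG (0.54 ± 0.73), so a rise like those on the other side could go uncalled in them. The median of all tested genes was 0.01.

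SIGIRR, an inhibitory receptor of interleukin-1 signalling, is the nearest tested gene on the side that rose. It measured 11.7, 13.3 and 12.8 CPM in knockout cells, against 6.14, 9.02 and 6.81 CPM in parent cells. The groups did not overlap (0.79 ± 0.14, edgeR adjusted p = 8.351e-05). PKP3, a desmosomal plaque protein, measured 47.7, 42.1 and 46.6 CPM in knockout cells, against 26.0, 24.5 and 24.2 CPM in parent cells (0.87 ± 0.08, edgeR adjusted p = 3.044e-11). IFITM2 and IFITM3, restriction factors of virus entry, rose by 0.98 ± 0.11 and 0.50 ± 0.05 (edgeR adjusted p = 3.217e-09 and 5.127e-11), and reads of these near-identical copies may be shared out between them. PSMD13, a subunit of the proteasome lid, measured 226, 233 and 234 CPM in knockout cells, against 152, 169 and 154 CPM in parent cells (0.55 ± 0.04, edgeR adjusted p = 4.6e-15). RIC8A, a chaperone of G protein alpha subunits, rose by 0.51 ± 0.05 (edgeR adjusted p = 9.064e-12), and BET1L, a Golgi SNARE, by 0.31 ± 0.07 (edgeR adjusted p = 0.0005184). The mitochondrial deacetylase SIRT3 was at 0.39 ± 0.13 (edgeR adjusted p = 0.03263) and was no longer called by DESeq2, with library size alone, or in the fits without knockout library 1 or 2 or parent library 1 or 3. B4GALNT4 and PGGHG, at 0.17 ± 0.08 and 0.17 ± 0.19, did not pass. On the other side RNH1, the ribonuclease inhibitor and next tested gene, measured 130, 129 and 134 CPM in knockout cells, against 125, 129 and 122 CPM in parent cells (0.07 ± 0.04, edgeR adjusted p = 0.3149). HRAS was at 0.02 ± 0.06 and DEAF1, the farthest of the 10, at -0.11 ± 0.11.

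The same genes were read off in the A375 libraries with the inhibitor, which share no library with the vehicle pair but share the fit's estimate of the spread. There 9 of the 10 genes toward the chromosome end rose (20.9% of all tested genes rose in that comparison), with a median of 0.52, and 1 of the 10 toward the centromere, PHRF1, fell (20.2% of all fell). The HCT116 clone had 5 rises (10.5% of all tested genes) and 1 fall (10.8%) toward the chromosome end, with a median of 0.14. The difference between the lines, A375 minus HCT116, passed the test for 5 of the 10 (8.96% of all tested genes passed upward): BET1L at 0.31 ± 0.09, RIC8A at 0.55 ± 0.07, PSMD13 at 0.64 ± 0.05, IFITM2 at 0.78 ± 0.13 and PKP3 at 0.78 ± 0.09. For SIGIRR the difference was 0.41 ± 0.17 (edgeR adjusted p = 0.08158).

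**Figure D2:**
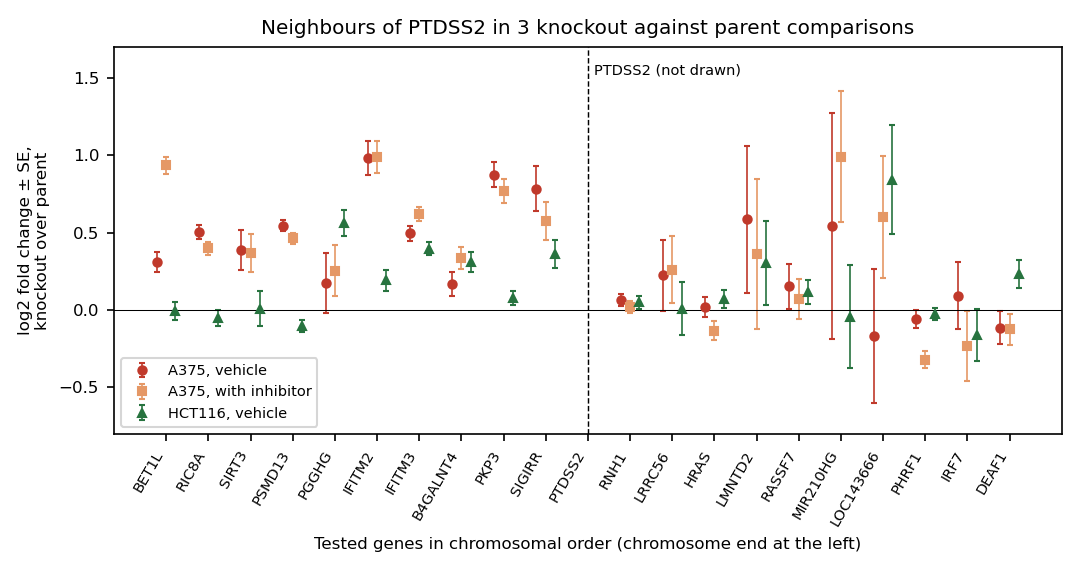
Log2 fold change of knockout over parent (points, ± SE) for the 10 tested genes on each side of PTDSS2, in chromosomal order with the chromosome end at the left; circles are A375 in vehicle, squares A375 with inhibitor and triangles HCT116 in vehicle. In A375 the genes left of PTDSS2 all lie above 0 and those right of it scatter around 0; PTDSS2 itself (-4.71) is off the scale and not drawn.

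Along all chromosomes, running medians over 25 neighbouring tested genes passed 0.3 in either direction in 1 place. This was on chromosome 6, from WHR1 to LOC100294145, a stretch of 32 tested genes across the class II region of the major histocompatibility complex, where the running median reached 0.33. In it 8 genes rose (9.18% of all tested genes rose), 7 of them HLA genes: HLA-DQA2 at 0.84 ± 0.20, HLA-DQA1 at 0.76 ± 0.17, HLA-DRB6 at 0.64 ± 0.13, HLA-DQB1 at 0.48 ± 0.14, HLA-DRB5 at 0.45 ± 0.09, HLA-DRB1 at 0.40 ± 0.05 and HLA-DRA at 0.26 ± 0.03. Class II molecules present peptides to helper T cells, and HLA-DRB6 is a pseudogene; the genes are highly similar, so reads may be shared out among them. The stretch had a median of 0.18 in vehicle and 0.25 with the inhibitor, against -0.02 for the 19 of its genes tested in the HCT116 clone. With windows of 15 genes the stretch from LINC01001 to MIR210HG, which holds PTDSS2, also passed (running median 0.39). It had 8 rises and 1 fall among 18, where 9.18% of all tested genes rose and 6.54% fell. Negative running medians passed over HOXA genes of chromosome 7, over 2 stretches of chromosome X that hold GAGE and SPANX genes and over zinc finger genes of chromosome 19. With windows of 51 genes no stretch passed. At 25 genes 12865 windows were scanned. The stretches were picked by these same log2 fold changes, so the calls inside them are no separate support, and chance was not tested.

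Cancer testis antigens, normally silent outside the germ line, were among the largest falls. SPANXB1 measured 0.512, 0.622 and 0.103 CPM in knockout cells, against 16.3, 16.5 and 14.7 CPM in parent cells, the largest fall by the rule for named genes (-5.26 ± 0.26, edgeR adjusted p = 1.645e-19). GAGE1 had 0 counts in each of the 3 knockout libraries, against 3.13, 4.38 and 4.30 CPM in parent cells, and was at least 36.1-fold lower when 3 counts over the knockout group are taken as the floor (edgeR adjusted p = 3.71e-11). The copies GAGE12C, GAGE12E, GAGE12G and GAGE12H measured 0 to 1.14 CPM in knockout cells and 5.61 to 8.76 CPM in parent cells. GAGE12C and GAGE12E had the same values in each library. The calls of all these copies, GAGE12G included, were lost by limma-voom. Those of GAGE12C, GAGE12E and GAGE12H were also lost without any 1 of the 6 libraries, so which copy fell is uncertain. CTAG1A and CTAG1B, 2 identical copies, each fell by 0.43 ± 0.07 on the log2 scale (edgeR adjusted p = 3.18e-05). CTAG2, named after its values were seen, measured 0.512, 0.373 and 0 CPM in knockout cells, against 1.57, 1.93 and 1.91 CPM in parent cells (edgeR adjusted p = 0.0002699). MAGEB2, also named after its values were seen, went the other way, at 3.17, 2.24 and 2.58 CPM in knockout cells, against 0.963, 1.42 and 1.07 CPM in parent cells (1.22 ± 0.32, edgeR adjusted p = 0.005149). Of 27 tested members of the cancer testis list, 3 rose (9.18% of all tested genes) and 8 fell (6.54% of all), with a median of -0.06, also with the genes at 0 counts set to their bounds. CTAG1A and CTAG1B, with the same values in each library, are counted separately among these falls, so the members are not all separate observations.

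The promoters of GAGE1 and SPANXB1 are shown because both genes, on the X chromosome, were at or near 0 in the clone and expressed in its parent. Capitals again mark CG dinucleotides, and both run from 250 bases before to 50 after the annotated start on the plus strand (RefSeq, GRCh38.p14), at chrX:49598763-49599062 and chrX:141002344-141002643.
GAGE1: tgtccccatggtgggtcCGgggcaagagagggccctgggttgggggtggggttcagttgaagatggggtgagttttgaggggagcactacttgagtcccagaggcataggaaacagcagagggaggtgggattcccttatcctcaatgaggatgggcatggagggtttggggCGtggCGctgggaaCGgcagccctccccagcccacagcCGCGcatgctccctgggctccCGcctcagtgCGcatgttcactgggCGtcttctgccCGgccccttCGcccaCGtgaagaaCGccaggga
SPANXB1: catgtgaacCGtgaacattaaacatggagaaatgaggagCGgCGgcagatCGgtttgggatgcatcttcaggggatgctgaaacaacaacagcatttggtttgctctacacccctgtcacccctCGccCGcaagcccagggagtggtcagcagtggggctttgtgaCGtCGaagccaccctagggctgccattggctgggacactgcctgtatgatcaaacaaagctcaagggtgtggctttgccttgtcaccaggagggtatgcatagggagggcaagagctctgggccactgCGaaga
They hold 13 and 9 CG dinucleotides, against 28 at PTDSS2. Among tested genes with a promoter in that set, the median number of CG dinucleotides was 14 for the 51 that rose at least 2-fold, 18 for the 121 that fell at least 2-fold and 26 for all 10774.

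The other large falls were in genes of low to moderate level in the parent. SOD3, the extracellular superoxide dismutase, measured 0.409, 0.373 and 0.930 CPM in knockout cells, against 9.99, 10.6 and 9.79 CPM in parent cells (-4.09 ± 0.27, edgeR adjusted p = 1.553e-15). VAT1L measured 0.307, 0.498 and 0.620 CPM in knockout cells, against 7.70, 7.47 and 8.71 CPM in parent cells (-4.04 ± 0.30, edgeR adjusted p = 4.445e-14). BARX1, a homeobox transcription factor, measured 2.66, 1.87 and 2.69 CPM in knockout cells, against 20.5, 20.2 and 17.9 CPM in parent cells (-2.99 ± 0.17, edgeR adjusted p = 1.132e-17). In none of these genes did the groups come near each other. CADM3, an adhesion molecule of neural cells, fell (-3.11 ± 0.26), as did XYLT1, which starts the sugar chains of proteoglycans (-3.03 ± 0.22), and HBE1, embryonic epsilon globin (-3.12 ± 0.26; edgeR adjusted p = 1.333e-12, 3.871e-14 and 1.046e-12). IGFBP5, which binds insulin-like growth factors, fell (-2.92 ± 0.26), as did the engulfment receptor gene MEGF10 (-2.69 ± 0.26) and NLRP2 (-2.39 ± 0.18; edgeR adjusted p = 9.061e-12, 9.3e-11 and 1.934e-13). All of these calls held in every alternative that tested the gene.

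The large rises were smaller in size and included secreted and cell surface genes. IL24, a cytokine of the interleukin-10 family, measured 97.0, 105 and 96.3 CPM in knockout cells, against 25.8, 23.8 and 27.6 CPM in parent cells (1.94 ± 0.06, edgeR adjusted p = 8.232e-26). CD93, a transmembrane lectin known from endothelium, measured 10.9, 9.83 and 7.75 CPM in knockout cells, against 1.81, 2.45 and 1.43 CPM in parent cells (2.33 ± 0.22, edgeR adjusted p = 3.361e-11). PXDN, the peroxidasin that crosslinks collagen IV, measured 99.0, 97.3 and 102 CPM in knockout cells, against 33.8, 30.3 and 33.6 CPM in parent cells (1.61 ± 0.06, edgeR adjusted p = 6.002e-24). In all of them the lowest knockout library stood above the highest parent library. SHISA2 rose by 1.25 ± 0.06, the chemokine CXCL1 by 1.29 ± 0.08 and the VEGF receptor gene KDR by 1.37 ± 0.13 (edgeR adjusted p = 1.575e-19, 2.088e-16 and 5.045e-11). IL1RL1, the interleukin-33 receptor, rose by 1.32 ± 0.13 and GHR, the growth hormone receptor, by 1.22 ± 0.23 (edgeR adjusted p = 1.162e-10 and 0.0001483). ABTB3 (1.81 ± 0.21), ANKRD30A (1.69 ± 0.16), ZFPM2 (1.65 ± 0.12), FBXL7 (1.61 ± 0.23), ARHGDIB (1.57 ± 0.15), ANO3 (1.45 ± 0.16) and CYB5R2 (1.39 ± 0.15) completed the 15 largest rises, with edgeR adjusted p from 2.339e-14 for ZFPM2 to 9.798e-07 for FBXL7.

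**Figure D3:**
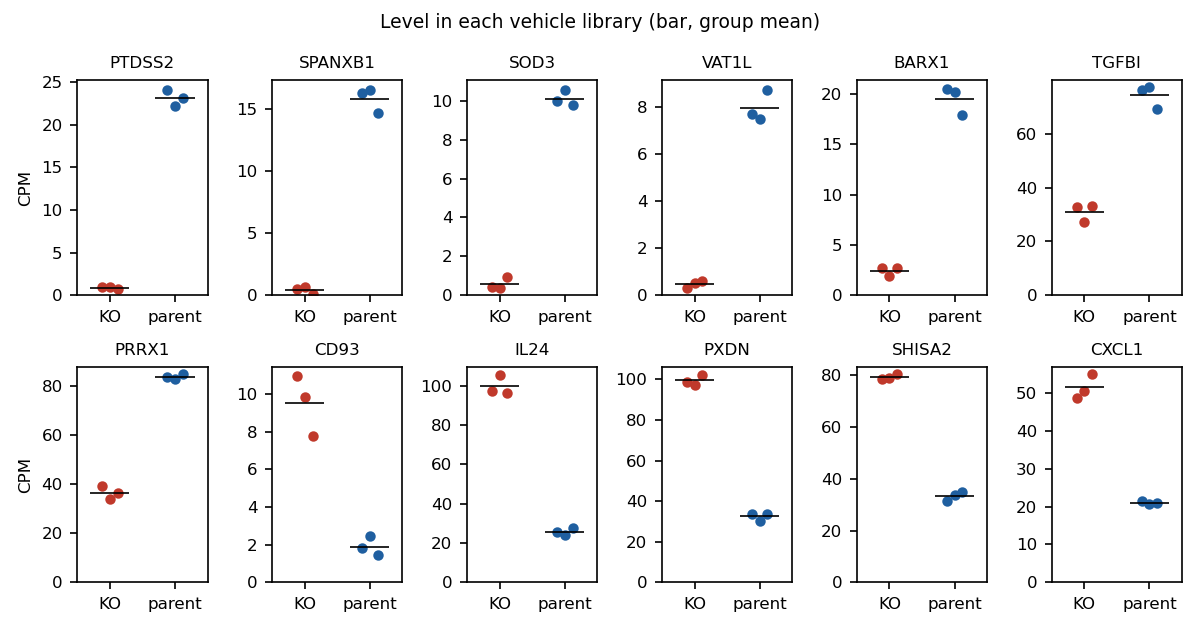
Level in CPM (y axis, from 0) in each knockout library (left, red) and each parent library (right, blue) for PTDSS2 and 11 other genes; short black lines are group means. No panel has overlapping groups, and the fallen genes SPANXB1, SOD3 and VAT1L sit near 0 in knockout cells.

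Genes of phospholipid synthesis and transport are given beside the 9.18% of all tested genes that rose and the 6.54% that fell. Of 9 tested genes of phosphatidylserine and phosphatidylethanolamine synthesis, PTDSS2 and ETNK1 fell and 0 rose by edgeR, by DESeq2 or by limma-voom, with 1 above 0 at an unadjusted p under 0.05. ETNK1, an ethanolamine kinase, was at -0.15 ± 0.05 (edgeR adjusted p = 0.03003) and lost its call by DESeq2 and without 1 of 4 libraries (knockout library 2 or 3, parent library 1 or 2). Of 9 genes of phosphatidylcholine synthesis only the choline transporter gene SLC44A2 was called, with 41.7 ± 2.02 CPM in knockout cells and 52.2 ± 1.02 CPM (SD) in parent cells (-0.32 ± 0.06, edgeR adjusted p = 0.0002361). Of 10 genes of CDP-diacylglycerol, phosphatidylinositol and cardiolipin synthesis, 0 were called by edgeR, DESeq2 or limma-voom, and 1 was above 0 at an unadjusted p under 0.05. MBOAT7, which attaches arachidonate to lysophosphatidylinositol, was the only call among 23 remodelling genes (-0.25 ± 0.05, edgeR adjusted p = 0.0004416).

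Among 24 tested flippases, scramblases and SERINC genes, 1 rose and 4 fell, and with library size alone 0 rose. VMP1, an ER scramblase of autophagy, measured 88.0, 95.5 and 86.5 CPM in knockout cells, against 109, 113 and 120 CPM in parent cells (-0.35 ± 0.05, edgeR adjusted p = 2.555e-07). ATP10A, a flippase of phosphatidylcholine, fell (-0.58 ± 0.13), and so did ATP9A (-0.31 ± 0.07; edgeR adjusted p = 0.000685 and 0.001673). Of 34 lipid transfer genes, 2 rose and 3 fell (5 with library size alone). PRELID3B, a mitochondrial carrier of phosphatidylserine, measured 254, 255 and 250 CPM in knockout cells, against 310, 315 and 307 CPM in parent cells (-0.29 ± 0.03, edgeR adjusted p = 2.355e-09). The knockout libraries stood clearly below the parent libraries. The sterol transporter gene GRAMD1B fell by 0.49 ± 0.07 (edgeR adjusted p = 9.15e-07), OSBPL10 fell by 0.28 ± 0.05 (edgeR adjusted p = 4.43e-05) and OSBPL3 rose by 0.25 ± 0.05 (edgeR adjusted p = 0.0005542). LPIN3, a phosphatidate phosphatase at low level, measured 0.614, 1.37 and 1.03 CPM in knockout cells, against 4.33, 3.61 and 3.82 CPM in parent cells (-1.98 ± 0.32, edgeR adjusted p = 1.208e-05).

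Of 28 cholesterol genes, 2 rose and 3 fell (9.18% of all tested genes rose and 6.54% fell), with a median of -0.04. With library size alone 0 rose and 6 fell. DHCR7, the last enzyme of the main cholesterol route, measured 43.1, 46.3 and 48.1 CPM in knockout cells, against 55.0, 60.4 and 57.2 CPM in parent cells (-0.33 ± 0.07, edgeR adjusted p = 0.0002429). The sterol sensor regulators INSIG1 and SREBF2 were at -0.27 ± 0.07 and -0.16 ± 0.05 (edgeR adjusted p = 0.009013 and 0.009833). Both calls ended without knockout library 1, and that of INSIG1 also without parent library 1. Of 21 fatty acid genes, 2 rose and 3 fell. SCD, which makes oleate, measured 331, 324 and 328 CPM in knockout cells, against 413, 431 and 402 CPM in parent cells (-0.34 ± 0.03, edgeR adjusted p = 2.004e-11). In the A375 pair with inhibitor the same gene was 0.43 higher in knockout cells on the log2 scale (edgeR adjusted p = 7.196e-16).

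Other lipid genes went both ways, beside 9.18% of all tested genes that rose and 6.54% that fell. Of 15 genes of triglycerides and lipid droplets 2 rose and 1 fell, and the rise of GPAT3 (0.11 ± 0.04, edgeR adjusted p = 0.04303) was no longer called in 13 alternatives, among them every other scaling. MGLL, which cleaves monoacylglycerol, measured 57.1, 49.3 and 54.9 CPM in knockout cells, against 36.4, 41.8 and 41.2 CPM in parent cells (0.44 ± 0.07, edgeR adjusted p = 2.215e-06). PLIN4, a lipid droplet coat protein, was at -1.50 ± 0.29 (edgeR adjusted p = 0.0001657). Of 10 lipins and lipid phosphate phosphatases LPIN3 fell and PLPP2 rose (0.15 ± 0.05, edgeR adjusted p = 0.04404), the second no longer called in 11 alternatives, among them every other scaling. Of 25 sphingolipid genes 5 rose and 3 fell, against 1 and 4 with library size alone. B4GALNT1, a synthase of complex gangliosides, measured 41.4, 37.6 and 37.7 CPM in knockout cells, against 51.5, 53.7 and 51.3 CPM in parent cells (-0.42 ± 0.07, edgeR adjusted p = 2.695e-05). Of 8 LXR targets APOE alone fell, at 0.717, 0.373 and 0.620 CPM in knockout cells, against 3.73, 1.93 and 1.79 CPM in parent cells (-2.08 ± 0.41, edgeR adjusted p = 0.0002392), and 0 rose by edgeR, DESeq2 or limma-voom or at an unadjusted p under 0.05.

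Several amino acid transporters were among the rises of the integrated stress response. Of 43 tested genes of that response 12 rose and 1 fell (9.18% of all tested genes rose and 6.54% fell), with a median of 0.01 that turned to -0.03 with library size alone. SLC3A2, the heavy chain of the large neutral amino acid exchanger, measured 702, 696 and 721 CPM in knockout cells, against 501, 498 and 510 CPM in parent cells (0.49 ± 0.03, edgeR adjusted p = 6.808e-18). Its light chain partner SLC7A5 measured 2199, 2104 and 2149 CPM in knockout cells, against 1508, 1618 and 1545 CPM in parent cells (0.47 ± 0.03, edgeR adjusted p = 1.582e-11). In the HCT116 clone these were at 0.05 and 0.04, and the A375 minus HCT116 differences of 0.43 ± 0.05 and 0.42 ± 0.05 passed the test (edgeR adjusted p = 2.433e-11 and 9.621e-09). The arginine transporter gene SLC7A1 rose by 0.22 ± 0.03 and PHGDH, the entry enzyme of serine synthesis, by 0.26 ± 0.03 (edgeR adjusted p = 1.075e-06 and 5.914e-09). The transporter genes SLC1A4, SLC1A5 and SLC6A9 of the same list, at 0.07, -0.03 and -0.13, did not pass. ATF4, ASNS, CHAC1, SESN2, ATF3 and DDIT3 of that list, at 0.01, -0.015, 0.001, 0.012, -0.018 and 0.207, did not pass either.

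Over all tested genes 9.18% rose and 6.54% fell. Of 34 genes of ER chaperones and the unfolded protein response, 9 rose and 1 fell, with a median of 0.06. CANX, the membrane lectin chaperone calnexin, was the one that fell, at 676, 666 and 691 CPM in knockout cells, against 867, 918 and 911 CPM in parent cells (-0.41 ± 0.03, edgeR adjusted p = 1.627e-15). Its soluble relative CALR rose by 0.14 ± 0.03 (edgeR adjusted p = 7.592e-05), the master chaperone HSPA5 by 0.15 ± 0.03 (edgeR adjusted p = 1.355e-05) and the disulfide isomerase PDIA3 by 0.18 ± 0.03 (edgeR adjusted p = 8.365e-06). CANX was at -0.03 in the HCT116 clone, and the difference between lines was -0.39 ± 0.04 (edgeR adjusted p = 2.548e-11). NRF2 targets, which answer oxidants, had 11 rises and 2 falls among 28, with a median of 0.13. NQO1 measured 1049, 1011 and 1054 CPM in knockout cells, against 761, 769 and 794 CPM in parent cells (0.42 ± 0.02, edgeR adjusted p = 8.46e-17). FTL, the ferritin light chain, rose by 0.35 ± 0.03 and the thioredoxin reductase gene TXNRD1 by 0.31 ± 0.03 (edgeR adjusted p = 1.135e-13 and 2.218e-12). These 3 genes also rose in the HCT116 clone, by 0.29, 0.33 and 0.18. Of 26 heat shock genes 11 rose and 1 fell, with a median of 0.09, and the largest of these rises was that of HSPA1B (0.30 ± 0.04, edgeR adjusted p = 9.385e-08), whose reads may be shared with its near-identical copy HSPA1A.

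Targets of YAP and SRF, which govern genes of cell spreading and the actin skeleton, had the highest median of the lists described here. Of 25, 13 rose and 2 fell (9.18% of all tested genes rose and 6.54% fell), with a median of 0.24, which was 0.20 with library size alone. TPM1, a tropomyosin, measured 346, 354 and 355 CPM in knockout cells, against 229, 224 and 230 CPM in parent cells (0.63 ± 0.03, edgeR adjusted p = 1.645e-19). AMOTL2, a feedback inhibitor of YAP, measured 221, 226 and 227 CPM in knockout cells, against 171, 167 and 171 CPM in parent cells (0.40 ± 0.04, edgeR adjusted p = 1.441e-11). The matrix protein gene THBS1 rose by 0.34 ± 0.02 and the receptor kinase gene AXL by 0.28 ± 0.03 (edgeR adjusted p = 1.769e-15 and 7.497e-10), and CCN1 by 0.51 ± 0.05 (edgeR adjusted p = 9.082e-10). CCN2 and ANKRD1, widely used readouts of YAP, were named after their values were seen. CCN2 measured 96.5, 96.0 and 94.0 CPM in knockout cells, against 66.9, 72.8 and 71.7 CPM in parent cells (0.44 ± 0.05, edgeR adjusted p = 7.247e-09). ANKRD1 measured 17.6, 17.2 and 21.6 CPM in knockout cells, against 15.3, 12.8 and 9.19 CPM in parent cells (0.61 ± 0.13, edgeR adjusted p = 0.000455).

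The promoters of CCN2 and ANKRD1 are shown because YAP reaches DNA through TEAD factors, whose core motif reads CATTCC on 1 strand and GGAATG on the other. Capitals mark either reading; both promoters are on the minus strand (RefSeq, GRCh38.p14), at chr6:131951323-131951622 and chr10:90921038-90921337.
CCN2: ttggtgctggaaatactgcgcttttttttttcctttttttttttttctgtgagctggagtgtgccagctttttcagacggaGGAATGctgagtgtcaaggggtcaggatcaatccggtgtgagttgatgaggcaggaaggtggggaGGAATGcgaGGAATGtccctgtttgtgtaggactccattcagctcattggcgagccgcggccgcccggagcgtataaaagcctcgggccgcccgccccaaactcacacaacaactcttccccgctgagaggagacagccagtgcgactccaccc
ANKRD1: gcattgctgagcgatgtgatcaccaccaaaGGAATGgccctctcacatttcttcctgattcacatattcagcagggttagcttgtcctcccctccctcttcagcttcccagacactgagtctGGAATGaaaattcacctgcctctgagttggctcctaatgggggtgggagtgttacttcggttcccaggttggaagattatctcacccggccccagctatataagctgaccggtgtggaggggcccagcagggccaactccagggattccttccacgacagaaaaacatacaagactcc
CCN2 holds 3 such motifs and ANKRD1 holds 2. Of the 20 tested list members with a promoter in the table, 8 held at least 1, and of all 35116 promoters 14.0% did. Among the 11 members that rose and had a promoter, 5 held it. A match of letters is no evidence of binding.

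Caveolar coat proteins and annexins, many of which bind phosphatidylserine, had 12 rises and 1 fall among 20 (9.18% of all tested genes rose and 6.54% fell) and a median of 0.17. ANXA6 measured 152, 160 and 156 CPM in knockout cells, against 94.6, 99.0 and 99.3 CPM in parent cells (0.67 ± 0.04, edgeR adjusted p = 2.11e-16). CAV1, the main coat protein of caveolae, measured 476, 464 and 479 CPM in knockout cells, against 370, 391 and 359 CPM in parent cells (0.34 ± 0.03, edgeR adjusted p = 2.963e-11). ANXA2 rose by 0.31 ± 0.03 (edgeR adjusted p = 3.669e-13). S100A4, a calcium binding protein that the list holds beside the annexins, fell to 62.0, 55.1 and 65.6 CPM in knockout cells, against 98.8, 97.3 and 115 CPM in parent cells (-0.76 ± 0.06, edgeR adjusted p = 5.406e-13). In the HCT116 clone S100A4 was at 0.72 instead, and the difference between the lines was -1.49 ± 0.08 (edgeR adjusted p = 9.368e-23).

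**Figure D4:**
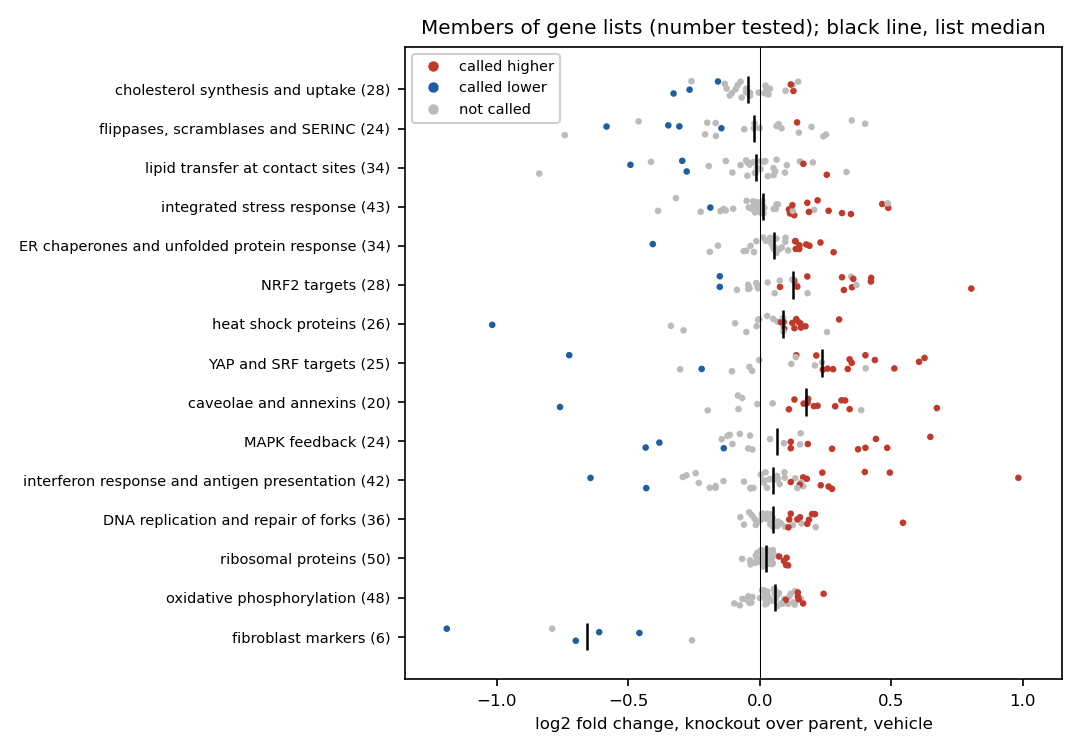
Each point is a tested member of a gene list (number tested in brackets), placed by its log2 fold change of knockout over parent in vehicle; red and blue points were called higher and lower, grey points were not called, and the black line is the list's median. Targets of YAP and SRF have their median at 0.24 and caveolae and annexins at 0.17, and the 6 fibroblast markers lie below 0.

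Cytokine genes of the NF-kB list were mixed, with 5 rises and 3 falls among 28 (9.18% of all tested genes rose and 6.54% fell). Besides IL24 and CXCL1, the chemokine CXCL8 rose, at 12.9, 13.8 and 14.7 CPM in knockout cells, against 7.58, 8.38 and 6.92 CPM in parent cells (0.86 ± 0.13, edgeR adjusted p = 3.991e-06). The apoptosis inhibitor gene BIRC3 rose by 1.10 ± 0.22 (edgeR adjusted p = 0.0002946). Complement C3 fell by 1.38 ± 0.26 (edgeR adjusted p = 9.26e-05). Of 42 interferon and antigen presentation genes 11 rose and 2 fell, and 2 of the rises were IFITM2 and IFITM3, neighbours of PTDSS2. CD74, the invariant chain of class II molecules, was named after its values were seen, and measured 1143, 1073 and 1092 CPM in knockout cells, against 905, 922 and 906 CPM in parent cells (0.28 ± 0.03, edgeR adjusted p = 1.039e-07).

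MAPK signalling drives A375, and its feedback genes moved both ways. Among 24, 9 rose and 3 fell (9.18% of all tested genes rose and 6.54% fell). FOSL1, an AP-1 subunit, measured 424, 426 and 443 CPM in knockout cells, against 319, 320 and 314 CPM in parent cells (0.44 ± 0.03, edgeR adjusted p = 5.458e-15). The receptor gene EPHA2 rose by 0.40 ± 0.03 (edgeR adjusted p = 3.306e-14), while the pathway inhibitor SPRY4 fell by 0.43 ± 0.04 (edgeR adjusted p = 5.032e-11). FOSL1 fell in the HCT116 clone by 0.70 on the log2 scale, and the difference between lines was 1.13 ± 0.06 (edgeR adjusted p = 1.038e-25). DKK1, a secreted WNT inhibitor, also differed in direction. It measured 294, 311 and 308 CPM in A375 knockout cells, against 170, 176 and 173 CPM in A375 parent cells (0.82 ± 0.03, edgeR adjusted p = 5.509e-22). In the HCT116 clone it fell by 1.43 on the log2 scale (edgeR adjusted p = 4.368e-30), a difference of 2.23 ± 0.05 (edgeR adjusted p = 2.125e-42).

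Secreted regulators and receptors were mixed. Of 28 TGF-beta, BMP and ID genes 2 rose and 5 fell (9.18% of all tested genes rose and 6.54% fell). FST, the activin antagonist follistatin, measured 245, 218 and 238 CPM in knockout cells, against 163, 138 and 149 CPM in parent cells (0.64 ± 0.05, edgeR adjusted p = 1.17e-10). TGFB1 fell by 0.33 ± 0.06 (edgeR adjusted p = 9.075e-05), and in the HCT116 clone it was at -0.42. Of 21 WNT genes 6 rose and 3 fell, with the receptor gene FZD8 at 0.50 ± 0.08 and the ligand gene WNT5A at 0.40 ± 0.06 (edgeR adjusted p = 1.084e-05 and 1.301e-06). Of 34 growth factor and cytokine receptors 7 rose and 6 fell, and ERBB3 fell to 262, 252 and 255 CPM in knockout cells, against 341, 327 and 338 CPM in parent cells (-0.39 ± 0.03, edgeR adjusted p = 5.643e-13). Of 23 immediate early genes 6 rose and 2 fell. JUN, an AP-1 subunit, rose by 0.49 ± 0.07, while the nuclear receptor gene NR4A1 fell by 0.38 ± 0.06 (edgeR adjusted p = 5.446e-07 and 1.645e-05). Of 33 HOX genes HOXD13 alone rose (0.56 ± 0.13, edgeR adjusted p = 0.002227), and 0 fell by edgeR, DESeq2 or limma-voom, with 5 below 0 at an unadjusted p under 0.05.

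Genes of melanoma cell state and matrix moved both ways, beside 9.18% of all tested genes that rose and 6.54% that fell. Of 17 tested melanocyte lineage genes 2 rose and 3 fell (5 with library size alone), and of 36 genes of the undifferentiated and neural crest states 9 rose and 9 fell. TGFBI, a secreted adhesion protein, measured 32.6, 27.1 and 33.1 CPM in knockout cells, against 76.3, 77.5 and 69.1 CPM in parent cells (-1.25 ± 0.07, edgeR adjusted p = 2.481e-18). NES, the intermediate filament nestin, fell to 230, 213 and 212 CPM in knockout cells, against 318, 329 and 336 CPM in parent cells (-0.58 ± 0.04, edgeR adjusted p = 2.246e-16). SNAI2, a transcription factor of neural crest and mesenchymal cells named after its values were seen, had 2 counts over the knockout libraries and 47 over the parent libraries, so its knockout level was 3.79% of the parent level, with an exact 95% counting interval of 0.445% to 14.5%. TFAP2A, a transcription factor of the neural crest, rose by 0.47 ± 0.11 (edgeR adjusted p = 0.002006), while MITF, the master factor of melanocytes, measured 29.2, 26.3 and 31.9 CPM in knockout cells, against 33.1, 29.9 and 30.7 CPM in parent cells and did not pass (-0.09 ± 0.08, edgeR adjusted p = 0.4899).

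Of 57 genes of collagens and matrix 11 rose and 13 fell (9.18% of all tested genes rose and 6.54% fell). COL5A2 rose to 385, 368 and 370 CPM in knockout cells, against 278, 252 and 276 CPM in parent cells (0.48 ± 0.03, edgeR adjusted p = 6.232e-15). COL5A1, whose chain assembles with it in type V collagen and which was named after its values were seen, fell to 10.9, 10.2 and 10.2 CPM in knockout cells, against 18.4, 19.6 and 18.0 CPM in parent cells (-0.83 ± 0.11, edgeR adjusted p = 2.009e-07). The crosslinking enzyme gene LOXL4 fell by 0.62 ± 0.04 and SPARC rose by 0.32 ± 0.03 (edgeR adjusted p = 9.678e-16 and 9.347e-13). Among integrins 3 rose and 3 fell of 18; ITGB3, of the vitronectin receptor, fell to 156, 149 and 156 CPM in knockout cells, against 221, 212 and 235 CPM in parent cells (-0.54 ± 0.04, edgeR adjusted p = 3.176e-14). Cadherins and other adhesion genes had 9 rises and 6 falls of 31, with PCDH10 at -1.49 ± 0.12 and NECTIN3 at 0.50 ± 0.06 (edgeR adjusted p = 1.453e-12 and 5.228e-09).

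Markers of fibroblasts moved with these groups. Of 6 tested fibroblast markers 4 fell by edgeR (6.54% of all tested genes fell and 9.18% rose). By edgeR, DESeq2 or limma-voom, or at an unadjusted p under 0.05, 0 of these markers rose. The calls of LUM and PDGFRB ended by DESeq2 and without any 1 of 4 libraries, and that of COL6A3 without parent library 1, while the call of PRRX1 held in every alternative. The summed level of the 12 markers was 52.8 to 59.3 CPM in knockout cells and 111 to 115 CPM in parent cells. PRRX1, a transcription factor of mesenchymal cells that some melanoma cells also express, made up most of that sum, at 39.1, 34.1 and 36.6 CPM in knockout cells, against 83.7, 82.9 and 85.1 CPM in parent cells (-1.19 ± 0.06, edgeR adjusted p = 1.645e-19). COL1A2, COL3A1, FAP and THY1 of the list averaged under 0.2 CPM in both groups. COL1A1, DCN, LUM, PDGFRB and COL6A3 averaged 0.736 to 6.84 CPM in knockout cells and 1.27 to 10.5 CPM in parent cells. The part of fibroblasts in the falls was not tested beyond these values. The summed levels of the 21 colon epithelium markers were 277 to 295 CPM in knockout cells and 277 to 300 CPM in parent cells, against 4084 to 4229 CPM in HCT116 parent cells, and KRT20, CDX1, CDX2, VIL1 and GPA33 were at 0 in all 6 A375 libraries. Of the 4 tested colon markers CLDN4, a tight junction protein, fell (-1.42 ± 0.17, edgeR adjusted p = 1.659e-08) and 0 rose by edgeR, DESeq2 or limma-voom or at an unadjusted p under 0.05. By edgeR 0 of 5 keratinocyte markers and 0 of 2 blood cell markers were called, as by DESeq2; at an unadjusted p under 0.05 and by limma-voom 1 keratinocyte marker was lower.

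Genes of housekeeping programmes are given beside the 9.18% of all tested genes that rose and the 6.54% that fell. With library size alone those shares were 5.85% and 9.31%. Some of the counts below are near these shares. Of 36 genes of DNA replication 10 rose (5 with library size alone) and 0 fell by edgeR, DESeq2 or limma-voom or at an unadjusted p under 0.05. RFC4, of the clamp loader, stood out, at 65.7, 63.5 and 64.6 CPM in knockout cells, against 41.9, 49.2 and 42.1 CPM in parent cells (0.54 ± 0.06, edgeR adjusted p = 1.648e-08). Of 33 mitosis genes 7 rose (3 with library size alone) and 2 fell, and PRC1, which bundles the spindle midzone, fell by 0.34 ± 0.03 (edgeR adjusted p = 2.218e-10). MYC rose to 27.3, 26.4 and 27.9 CPM in knockout cells, against 20.7, 20.6 and 21.7 CPM in parent cells (0.37 ± 0.09, edgeR adjusted p = 0.001679). Of 50 ribosomal protein genes 5 rose with TMM scaling, but with library size alone 1 fell and the calls of the 4 named by the rule (RPL35, RPS19, RPL14 and RPL22) were lost. Of 27 p53 targets 5 rose (3 with library size alone) and 1 fell, with CDKN1A, a cell cycle inhibitor, at 0.25 ± 0.05 (edgeR adjusted p = 0.0002728). Of 36 genes of hypoxia and glycolysis 8 rose and 5 fell. SLC16A3, a lactate exporter, measured 25.9, 26.6 and 26.6 CPM in knockout cells, against 17.8, 18.3 and 16.8 CPM in parent cells (0.58 ± 0.09, edgeR adjusted p = 3.573e-06). Of 48 genes of oxidative phosphorylation 6 rose, against 2 with library size alone, and of 30 genes of ribosome biogenesis and MYC 6 rose. In both lists 0 fell by edgeR, DESeq2 or limma-voom or at an unadjusted p under 0.05. Of 39 lysosome and autophagy genes 9 rose, against 5 with library size alone, and 3 fell. CTSZ, a lysosomal protease, fell to 203, 200 and 206 CPM in knockout cells, against 269, 270 and 276 CPM in parent cells (-0.42 ± 0.04, edgeR adjusted p = 1.552e-12), while its relative CTSB rose by 0.28 ± 0.04 (edgeR adjusted p = 1.097e-07). Of 32 apoptosis genes 7 rose and 1 fell, and of 23 amino acid transporters 6 rose and 1 fell.

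The clone's difference was set beside 2 other pairs. With the inhibitor, where 5529 of 13455 genes differed between knockout and parent (41.1%), 513 genes that had risen in vehicle rose again and 312 fell. That was 41.5% of the vehicle rises and 18.2% of the rises with inhibitor, where 20.9% of all tested genes rose and 20.2% fell. Of the falls 398 recurred and 165 were opposite, 45.2% of the vehicle falls and 14.7% of those with inhibitor. Among the 244 genes changed at least 2-fold in vehicle, 188 (77.0%) changed the same way with inhibitor and 5 the opposite way. Of 25 targets of YAP and SRF 18 fell with inhibitor (20.2% of all tested genes fell), with a median of -0.60. THBS1 of that list was at -1.06. Of 20 genes of caveolae and annexins 6 rose and 6 fell with inhibitor, with a median of 0.07, and CAV1 of this second list was at -0.92. The knockout pair with inhibitor also carries the response of knockout cells to the compound, so the pairs differ in more than the libraries.

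In HCT116, 2801 of 13164 genes differed between the knockout clone and its parent (21.3%). Of 12003 genes tested in both lines, 148 rose in both and 227 rose in A375 but fell in HCT116. These 148 were 13.8% of the A375 rises and 11.8% of the HCT116 rises. Of the falls 75 were shared and 135 were opposite, 11.3% of the A375 falls and 5.60% of the HCT116 falls. Of all genes tested in HCT116 10.5% rose and 10.8% fell, so the share of A375 falls that recurred was near that of genes in general. Opposite calls outnumbered shared ones in both directions, at 227 of 1075 A375 rises and 135 of 665 A375 falls. Among the 95 genes changed at least 2-fold in A375 and tested in HCT116, 9 changed the same way and 16 the opposite way. The difference itself passed the test for 2427 of 14637 genes (16.6%), 1311 upward (8.96%) and 1116 downward (7.62%). Apart from PTDSS2, ITGB4, a hemidesmosome integrin, fell in both lines (-0.64 ± 0.10 in A375 and -0.50 in HCT116), and CCN1 rose in both (0.51 ± 0.05 and 0.50 ± 0.09), with a difference of 0.00 that did not pass (edgeR adjusted p = 1).

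**Figure D5:**
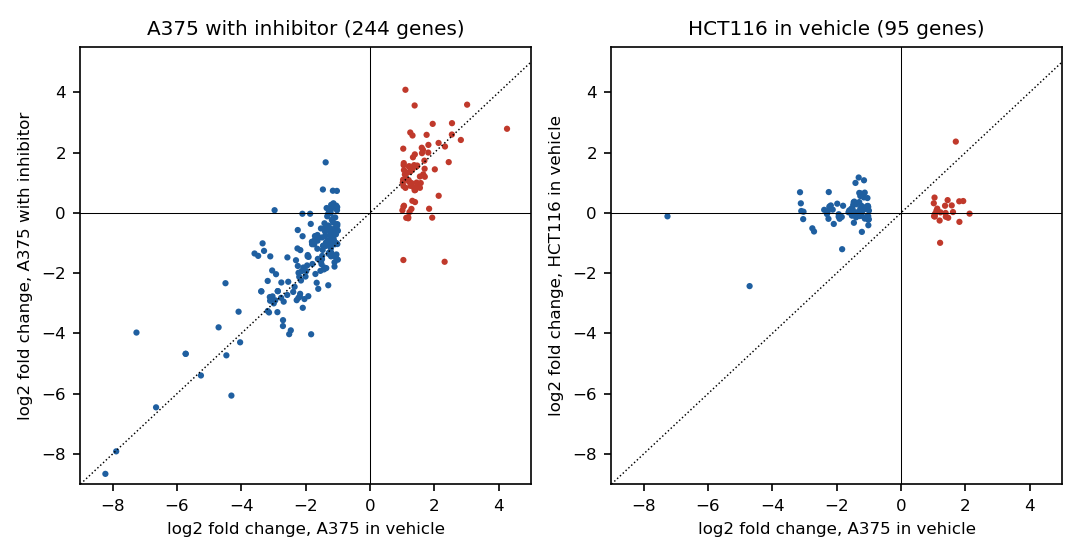
Genes changed at least 2-fold in A375 in vehicle, with their log2 fold change of knockout over parent there on the x axis and in A375 with inhibitor (left, 244 genes) or in the HCT116 clone in vehicle (right, the 95 tested there) on the y axis; red points rose and blue points fell in A375 vehicle, and the dotted line marks equal values. Most points lie near the dotted line at the left and near 0 on the y axis at the right, where PTDSS2 is among the few low in both.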

How the data were processed

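The series holds 24 poly(A) RNA libraries made with NEBNext Ultra kits, per the labels' protocols. STAR 2.4.2a, RSEM 1.2.23 and hg19 are named by the submitters' processing notes. The gene annotation and strand setting are not stated there or in the labels, so overlapping and antisense genes cannot be told apart. Values in the deposited files, per the file headers, are RSEM expected counts, TPM and FPKM for each gene. TPM was used for PTDSS2 only and FPKM was not used. Symbols were matched for 25220 of 25343 genes to a RefSeq gene table of GRCh38.p14, whose gene order gave the neighbours, and the 123 unmatched genes held at most 0.0724% of a library's counts.

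Expected counts were rounded. The 12 A375 libraries were fitted in R 4.3.3 with edgeR 4.0.16 (TMM, default filter with minimum count 10 and total 15, robust quasi-likelihood F test, two-sided, 4 group means), with Benjamini-Hochberg adjustment over all genes tested. HCT116 was fitted alike, and A375 minus HCT116 over all 24 libraries. The fits were tested on simulated data. Alternatives were other scalings (DESeq2 size factors, library size alone), other tools (DESeq2 1.42.0, limma-voom of limma 3.58.1), other filters (none, or a mean of at least 5 CPM), other sets of libraries (those compared, or all 24), blocking on replicate number, and omission of single libraries.

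The members and lists were chosen with earlier results of these data known. Named genes were PTDSS2, PTDSS1, PISD, the 15 largest rises and falls (adjusted p under 0.05, at least 5 CPM in the higher group, groups not overlapping), up to 4 called members of each of 46 lists with the smallest adjusted p, the 10 tested genes on each side of PTDSS2 and the ends of stretches. Other names are marked as chosen after their values were seen, or are called genes of a stretch, markers or genes changed in both lines. Replicates of a group differed by more than counting noise (chi-square per degree of freedom 1.47 to 1.60), so none was merged. Intervals and floors cover counting error only.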

Additional observations from a re-analysis of the deposited data

Results flagged for a closer look

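Of the genes named as the target, as the largest changes or as neighbours of PTDSS2, 14 differed between the A375 and the HCT116 clone by the interaction term of the fit of all 24 libraries. Among the other large changes IL24, CD93, SHISA2, SPANXB1, SOD3, VAT1L and BARX1 averaged 0 CPM in both HCT116 vehicle groups. For those genes the term could not be judged. Over all genes tested in that fit, 2427 of 14637 (16.6%) differed. The largest changes were chosen by their A375 values, which enter this term, so their passing it was partly fixed by the choice. All values are A375 minus HCT116 on the log2 scale. PTDSS2 was at -2.285 and PTDSS1 at 0.263, so the PTDSS2 RNA left was a smaller share of the parent's in A375, and PTDSS1 fell in HCT116 (-0.21 ± 0.04, edgeR adjusted p = 0.0002112) but not in A375 (0.06 ± 0.04). Among the large rises ABTB3 was at 1.416, PXDN at 1.577, ARHGDIB at 1.319 and CYB5R2 at 1.513. Among the large falls HBE1 was at -3.439, XYLT1 at -3.079 and NLRP2 at -2.497, and HBE1 rose in HCT116 (0.31, edgeR adjusted p = 0.001358). Among the neighbours of PTDSS2 IFITM2 was at 0.782, BET1L at 0.31, RIC8A at 0.546, PSMD13 at 0.64 and PKP3 at 0.784. The lines differ in tissue of origin and in clone together, and these cannot be told apart. No group of 3 libraries was screened for an outlying library.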

How the results depend on the processing

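Of the count of changed genes between knockout and parent in vehicle, 2115, DESeq2 gave 1371 (753 up, 618 down), with 3 genes lacking an adjusted p; the cause was not tested. The other alternatives with all 6 libraries gave 1880 to 2146, and the fits that left out 1 library gave 1553 to 1753. Leaving out 1 library gave 4806 to 5076 genes for the pair with inhibitor (5529 in all libraries), 2048 to 2347 for A375 minus HCT116 (2427) and -4.80 to -4.58 for PTDSS2 (-4.71). For A375 minus HCT116, library size alone gave 1059 rises and 1404 falls in place of 1311 and 1116. Replicate numbers in the labels only number the libraries: the deviations of same-numbered knockout and parent libraries from their group means correlated at 0.008, 0.015 and -0.009, so they were not taken as pairs. A replicate block gave 2146 genes in vehicle, 5546 with inhibitor, 2503 for A375 minus HCT116 and -4.71 for PTDSS2. Of 203 named genes 186 were called and 155 of these in every alternative that tested them; no called gene changed direction. Depth limits the low genes: the PTDSS2 level in knockout cells rests on 7 to 9 counts a library, and SNAI2 on 2 counts in all.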
